A study of Mus musculus with 7 samples.

Results

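Of the 10756 MyoD peaks in the authors' list, 478 (4.44%) lay at genes whose RNA was lower in mouse myotubes than in growing myoblasts. A peak was a member when its summit, the position of highest tag density, fell inside or within 10 kb of the locus of such a gene on chromosomes 1 to 19. The locus had to be at most 200 kb long and belong to 1 row of the authors' gene table. The gene had to have at least 5 FPKM (fragments of RNA sequenced, per kilobase of transcript and adjusted for how many were mapped) in myoblasts and a ratio (myotube FPKM + 1)/(myoblast FPKM + 1) of at most 0.4. These are called falling genes below. The members were chosen by the 2 FPKM values and the position of the summit, so their low ratios are a description, and nothing is drawn from them. The members sat at 310 of 1131 falling genes that met the limits, in 483 pairs of peak and gene, because 5 peaks were in reach of 2 falling genes. The 310 rows carried 309 symbols.

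The peaks came from chromatin immunoprecipitation and sequencing (ChIP) of MyoD in 2-day myotubes, the multinucleated cells that form when confluent primary myoblasts are kept for 48 hours in medium with 5% horse serum. The RNA came from 2-day myotubes and from myoblasts in growth medium, both carrying an empty vector, so both RNA conditions share the vector. All cells descended from satellite cells, the stem cells of muscle, that were sorted out of mice aged 4 to 6 weeks. The labels used here state neither strain nor genotype of the mice. Each group held 1 sample, so no difference here has a replicate check and no test over samples was possible, and the 4 histone ChIP samples of the series were not analysed here. The label of the MyoD sample says that it was taken from an earlier sample, and the antibodies in the labels' protocol do not include one against MyoD. The MyoD peaks used here are those of myotubes, so no peak has a value in myoblasts.

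MyoD is a basic helix-loop-helix factor that commits cells to skeletal muscle and switches on muscle genes. It pairs with E proteins and binds the E-box, a short DNA motif of the letters CANNTG. Id proteins pair with E proteins but cannot bind DNA, and so limit the E proteins with which MyoD can pair. When myoblasts leave the cell cycle, genes of DNA replication and mitosis are shut down while muscle genes come on.

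The promoters below are shown because a MyoD summit lay from 250 bp before to 50 bp after the 5′ end of the locus of a falling gene. Ptma, Ttll7, Srsf3 and Psmd5 had the most tags among such peaks at genes with a single RefSeq start, and Birc5, Id2 and Rrm2 belong to the gene lists described further on. The sequences are those of RefSeq on the GRCm38.p6 build, from 250 bases before the start of the gene to 50 after it, on the gene's strand. The peaks are on the mm9 build, so summit distances were measured on mm9 and no position was carried over. Whether a summit falls within the printed bases was therefore not tested. Capitals mark every E-box CANNTG.
Ptma: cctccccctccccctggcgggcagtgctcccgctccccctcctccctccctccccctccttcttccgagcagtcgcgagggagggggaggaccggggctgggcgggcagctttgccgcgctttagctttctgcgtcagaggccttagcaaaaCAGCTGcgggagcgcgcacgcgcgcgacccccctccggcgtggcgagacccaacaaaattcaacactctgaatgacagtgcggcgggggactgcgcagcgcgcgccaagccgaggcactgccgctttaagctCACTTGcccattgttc
Ttll7: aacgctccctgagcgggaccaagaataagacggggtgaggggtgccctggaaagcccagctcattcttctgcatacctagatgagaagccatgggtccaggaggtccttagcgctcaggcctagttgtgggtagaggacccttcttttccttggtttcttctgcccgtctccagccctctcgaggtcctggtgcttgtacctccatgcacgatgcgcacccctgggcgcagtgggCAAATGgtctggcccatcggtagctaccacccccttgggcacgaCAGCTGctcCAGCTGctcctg
Srsf3: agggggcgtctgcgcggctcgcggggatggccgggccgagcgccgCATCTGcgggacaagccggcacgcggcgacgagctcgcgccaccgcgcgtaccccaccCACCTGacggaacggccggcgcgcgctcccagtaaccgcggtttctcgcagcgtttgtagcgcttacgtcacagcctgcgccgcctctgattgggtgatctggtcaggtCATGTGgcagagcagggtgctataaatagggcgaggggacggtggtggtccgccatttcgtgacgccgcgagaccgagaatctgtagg
Psmd5: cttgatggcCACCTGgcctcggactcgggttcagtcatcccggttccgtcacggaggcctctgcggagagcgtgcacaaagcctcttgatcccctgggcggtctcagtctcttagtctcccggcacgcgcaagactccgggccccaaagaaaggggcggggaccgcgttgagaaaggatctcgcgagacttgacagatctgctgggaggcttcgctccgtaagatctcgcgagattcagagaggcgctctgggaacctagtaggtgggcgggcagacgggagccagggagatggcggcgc
Birc5: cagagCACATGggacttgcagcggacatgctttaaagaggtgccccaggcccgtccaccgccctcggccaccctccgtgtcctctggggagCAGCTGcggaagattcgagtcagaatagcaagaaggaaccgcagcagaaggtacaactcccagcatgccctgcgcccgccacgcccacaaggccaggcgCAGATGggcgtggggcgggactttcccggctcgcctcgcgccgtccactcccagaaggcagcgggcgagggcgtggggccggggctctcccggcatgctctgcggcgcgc
Id2: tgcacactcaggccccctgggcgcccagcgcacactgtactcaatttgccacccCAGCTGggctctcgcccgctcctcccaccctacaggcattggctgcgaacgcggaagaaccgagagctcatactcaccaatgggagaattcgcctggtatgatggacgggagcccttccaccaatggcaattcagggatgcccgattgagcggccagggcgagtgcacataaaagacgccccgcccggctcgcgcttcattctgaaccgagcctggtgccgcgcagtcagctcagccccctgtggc
Rrm2: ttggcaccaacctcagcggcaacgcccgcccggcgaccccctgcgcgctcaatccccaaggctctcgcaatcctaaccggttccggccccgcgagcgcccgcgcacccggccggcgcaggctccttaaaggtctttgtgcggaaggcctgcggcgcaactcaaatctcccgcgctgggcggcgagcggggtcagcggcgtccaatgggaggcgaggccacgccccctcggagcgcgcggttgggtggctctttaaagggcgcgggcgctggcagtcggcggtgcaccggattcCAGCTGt
Ptma encodes prothymosin alpha, an abundant nuclear protein of dividing cells, and its 300 bases on chr1:86526307-86526606 (+) held CAGCTG and CACTTG. Ttll7, a tubulin polyglutamylase, held CAGCTG in 2 places on chr3:146852117-146852416 (+). Srsf3, a splicing factor, on chr17:29032410-29032709 (+), and Psmd5, a chaperone of proteasome assembly, on chr2:34870913-34871212 (-), each held no CAGCTG and 1 CACCTG, which reads CAGGTG on the other strand. Birc5 (survivin, chr11:117848987-117849286, +), Id2 (chr12:25096043-25096342, -) and Rrm2 (chr12:24708004-24708303, +) each held 1 CAGCTG. Thus 5 of the 7 promoters held CAGCTG and the other 2 held CAGGTG. The 7 do not stand for all such promoters. Those of Srsf7 and Ccnl1, next by tags with 30 each and a single RefSeq start, held no E-box. The false discovery rate that the authors' caller gave these 7 peaks was 3.74% at Ttll7 and between 6.24% and 23.7% at the others.

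At 38 pairs the summit lay within 300 bp of the 5′ end, in 38 genes. Their promoters were read from 250 bases before the start to 50 after it. On mm9, some of the 38 summits lay more than 50 bp inside the 5′ end. Examples were Anxa1 at 299 bp, Srd5a3 at 288 bp and Ccdc109b, whose promoter held CAGCTG, at 262 bp. Whether the bases read held the summit was not tested, so the shares below describe promoters and not summits. CAGCTG was present in 14 of these 38 promoters (36.8%, exact Clopper-Pearson 95% interval 21.8 to 54.0). It was present in 35 of 203 promoters of falling genes with a member peak elsewhere (17.2%, 12.3 to 23.2), in 83 of 540 of falling genes with no peak (15.4%, 12.4 to 18.7) and in 4341 of all 27025 RefSeq promoters (16.1%, 15.6 to 16.5). Rising genes with a summit within 300 bp of the 5′ end had it in 10 of 26 (38.5%, 20.2 to 59.4) and steady genes in 27 of 112 (24.1%, 16.5 to 33.1), so the interval for the falling promoters overlapped that of both classes. All intervals of shares cover counting error only. CAGGTG, counted on both strands, was in 18.4% of the 38 promoters against 20.0% of all, CACGTG in 7.89% against 7.24%, and any CANNTG in 76.3% against 72.1%. Each of these 3 motifs is counted again in CANNTG. Falling genes with a member peak elsewhere had any CANNTG in 60.1% of promoters (53.0 to 66.9) and those with no peak in 61.7% (57.4 to 65.8). With a summit within 300 bp of the 5′ end, rising genes had it in 73.1% and steady genes in 65.2%. The interval for the 38 promoters, 59.8 to 88.6, overlapped those of both other groups of falling genes. The median GC content was 63.5% in the 38 promoters, 62.3% and 60.7% in promoters of falling genes with a peak elsewhere and with none, and 52.7% over all promoters. The part of base composition in these shares was not tested. RefSeq gave strand and promoter for 242 of the 310 genes.

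The RNA values were those of muscle cells in growth medium and after 2 days of differentiation. The cells in growth medium already held myotube RNAs, such as Acta1 at 764 FPKM and Myog at 130 FPKM. A fixed list of 5 myotube markers summed to 21242 FPKM in myotubes, against 1298 FPKM in myoblasts, and 5 myoblast markers to 3232 FPKM in myotubes, against 1616 FPKM in myoblasts. Des, the muscle intermediate filament desmin, made most of the second sum, with 2785 FPKM in myotubes, against 539 FPKM in myoblasts, while Myf5, Myod1 and Pax7 of the same list were lower in myotubes. Marker lists of 6 other cell types summed to between 0.289 and 8.17 FPKM in myotubes and between 3.37 and 74.7 FPKM in myoblasts, with Lum, Plin1 and Cnn1 at 0 in both. The highest sum, for smooth muscle and pericytes, came mainly from Rgs5, which is itself a falling gene with a member peak and had 7.72 FPKM in myotubes, against 73.1 FPKM in myoblasts. Lpl, which made most of the adipocyte sum, is also a falling gene, with 2 member peaks. It had 4.36 FPKM in myotubes, against 13.6 FPKM in myoblasts. The part of such cells in the falling genes was not tested. In bulk RNA, fewer cells of a type and less RNA per cell cannot be told apart. The MyoD ChIP library had 8637045 tags, 4049890 of them unique, and its control 9129012 tags, 4371189 of them unique. How deep the RNA libraries were is unknown.

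The authors' deposited table marked 274 of the 310 genes as significantly lower in myotubes and did not mark 36. It marked 17.3% of all 15966 tested genes as lower, and 18.2% of those that met the locus limits with at least 5 FPKM in either condition. The ratio and the FPKM minimum alone were met by 13.9% of tested genes. The rule used this contrast, so nothing is read from these counts. The median log2 ratio of tested genes was -0.38, with 1 added to each FPKM, so the myotube values sat below the myoblast values as a whole. The 310 genes with a member peak had a median log2 ratio of -1.83 and the 821 falling genes without one a median of -1.90. Median levels were 6.68 FPKM in myotubes and 29.3 FPKM in myoblasts for genes with a peak, and 4.90 FPKM in myotubes and 23.4 FPKM in myoblasts for those without. Loci with a peak were longer, at a median of 25669 bp against 14315 bp.

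A MyoD peak was less frequent at falling genes than at rising genes. Of the 1131 falling genes 27.4% held one (24.8 to 30.1), of 427 rising genes 49.9% (45.0 to 54.7), and of 1733 steady genes 32.1% (29.9 to 34.3). Rising genes had at least 5 FPKM in myotubes and a ratio of at least 2.5. Steady genes had at least 5 FPKM in myoblasts and a ratio from 0.8 to the inverse of 0.8. Over all 6634 genes that met the locus limits with at least 5 FPKM in either condition, 33.1% held a peak. The share at falling genes lay below the 33.1%, and its interval overlapped that of steady genes at its upper end. Genes are not independent replicates of the single ChIP sample, and no test was made over them.
Locus length moved with the share, so the classes were also set side by side within bins of length. Up to 10 kb, 18.6% of falling genes held a peak, against 33.0% of rising and 20.0% of steady genes. From 10 to 30 kb the shares were 26.0% of falling, 55.7% of rising and 35.9% of steady genes. From 30 to 100 kb they were 34.1%, 64.9% and 47.6% in the same order of classes. From 100 to 200 kb they were 56.9% of 72 falling, 92.9% of 28 rising and 61.4% of 57 steady genes. In all 4 bins the falling genes had the lowest share, and in the 2 middle bins their interval lay below that of steady genes without overlap. In the shortest and the longest bin the intervals of falling and steady genes overlapped. By mean FPKM of both conditions the falling genes held a peak in 24.6% up to 10 FPKM, in 27.3% from 10 to 50 FPKM and in 33.3% above 50 FPKM. Rising genes held one in 37.6%, 44.9% and 64.3% of those bins and steady genes in 30.2%, 34.1% and 30.1%. Above 50 FPKM the falling genes were therefore not below the steady genes.

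**Figure D1:**
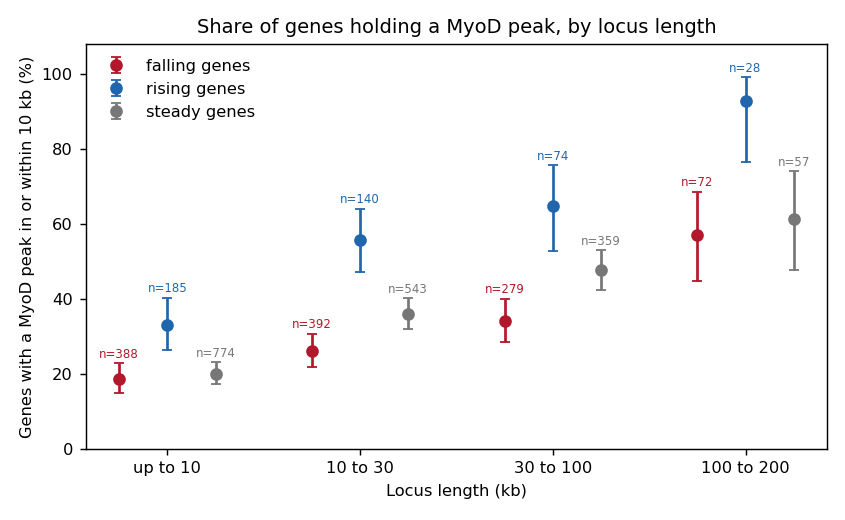
Share of genes with a MyoD peak in or within 10 kb of the locus (%) by locus length (kb), for falling, rising and steady genes; points are shares, bars exact Clopper-Pearson 95% intervals, n the number of genes. Falling genes sit lowest in every bin, at 18.6% up to 10 kb and 56.9% from 100 to 200 kb.

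The member peaks were mostly small. Tags per peak, the count of ChIP reads in it, had a median of 14 (quartiles 10 and 22, range 7 to 707) at falling genes. Peaks at rising genes had a median of 22 tags (13 and 32), peaks at steady genes 15 (10 and 24) and all peaks 14 (9 and 22). Of member peaks 13.6% had at least 30 tags (10.7 to 17.0), against 30.3% at rising genes (25.8 to 35.2), 13.9% at steady genes and 12.6% of all peaks. By tags the members were close to peaks at steady genes and to the list as a whole, and smaller than peaks at rising genes. Width followed tags, with medians of 443 bp at falling, 553 bp at rising and 469 bp at steady genes.
Fold enrichment, the ratio of tags to the regional background that the authors' caller gave, ran the other way. Its median was 14.4 at falling genes (quartiles 10.7 and 19.5), 12.9 at rising genes, 13.7 at steady genes and 15.3 over all peaks. Over the 478 members, tags had a Spearman rho of 0.84 with width and -0.26 with fold enrichment. All 3 come from the same reads of 1 library, and the rho are descriptions. The peak caller's false discovery rate (FDR) was at most 5% for 72 members (15.1%, 12.0 to 18.6), against 19.4% of all peaks, 22.6% at rising and 15.8% at steady genes. Over all 10756 peaks the FDR had a Spearman rho of -0.99 with the p score (the authors' p-value on a logarithmic scale, higher for stronger peaks). The strongest peaks departed from this order: 13 members had a p score of at least 200, and 6 of these had an FDR above 5%.

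**Figure D2:**
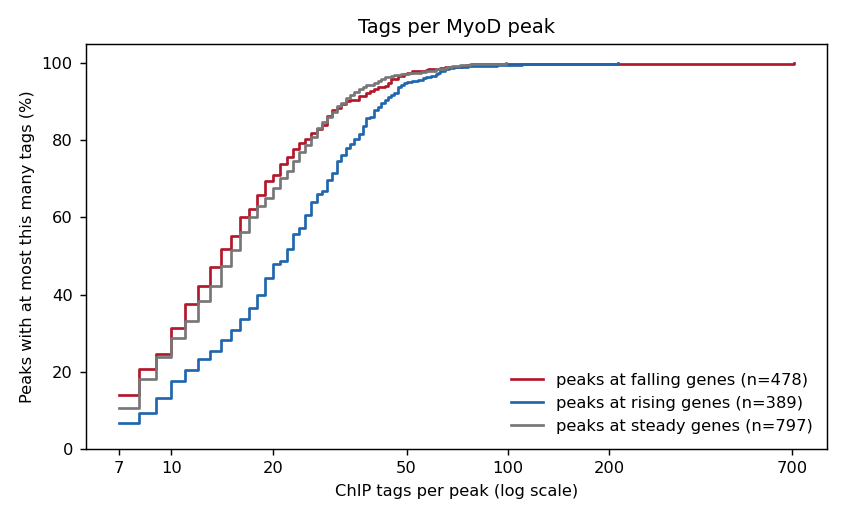
Cumulative share of peaks (%) by ChIP tags per peak (log scale) at falling, rising and steady genes. The curves for falling and steady genes run close together, with medians of 14 and 15 tags, and the curve for rising genes lies to the right, with a median of 22; the single point at 707 tags is the Myod1 peak.

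Summits of member peaks lay inside a falling locus in 273 cases (57.1%). Strand was known for 375 of the 483 pairs. Of these, 10.1% had the summit within 300 bp of the 5′ end (7.27 to 13.6), against 8.90% at rising genes (5.90 to 12.8) and 16.5% at steady genes (13.8 to 19.5). Within 1 kb of the 5′ end it was 14.4% at falling, 14.4% at rising and 21.4% at steady genes. Summits inside the locus but over 1 kb from the 5′ end made up 49.1% at falling, 52.7% at rising and 41.7% at steady genes. Downstream of the locus lay 22.4%, 15.4% and 22.2% in the same order. In closeness to the 5′ end the falling genes were nearer to rising genes, and in peak size nearer to steady genes.
The 38 pairs at the 5′ end had a median of 19 tags and a fold enrichment of 10.4. The 184 pairs inside and over 1 kb away had 13 tags and a fold enrichment of 15.6. Rising genes showed the same order, with 24.5 tags and 10.2 at the 5′ end and 19 tags and 13.9 inside, and so did steady genes, with 20.5 tags and 10.4 at the 5′ end and 13 tags and 15.0 inside. Summits at 5′ ends thus had more tags and less enrichment over their surroundings in all 3 classes.

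**Figure D3:**
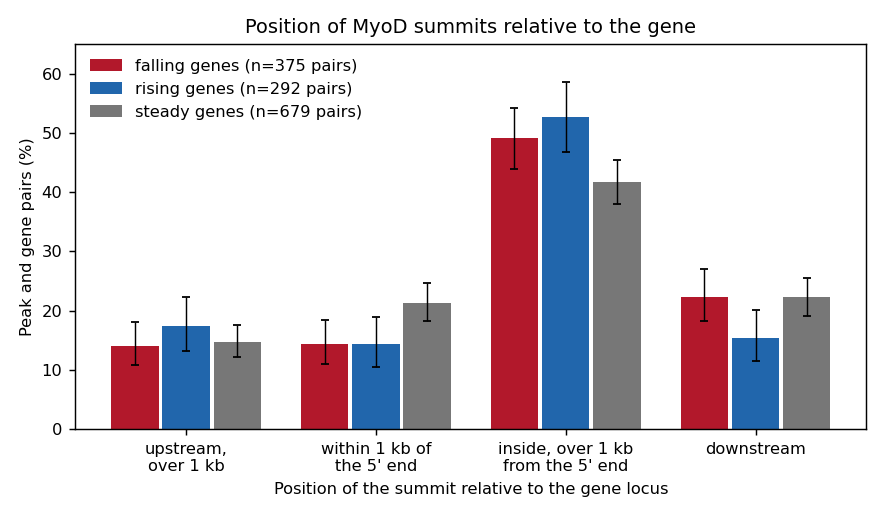
Share of peak and gene pairs with known strand (%) by position of the summit relative to the locus, for falling, rising and steady genes; bars are shares and lines exact Clopper-Pearson 95% intervals. Within 1 kb of the 5′ end the falling and rising genes have 14.4% each and steady genes 21.4%; inside the locus the order is 49.1%, 52.7% and 41.7%.

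Not every member peak was closest to the falling gene. For 386 peaks (80.8%) the nearest locus was that of a falling gene, and for 92 (19.2%) it was another gene. Only loci of tested or falling genes were compared, and a tie with another gene was counted for the falling gene. No other tested or expressed gene was in reach of 337 (70.5%). A rising gene was also in reach of 17 members (3.56%), and these had a median of 23 tags, against 14 for the other 461. Beyond the 3′ end of Inf2, a formin that builds actin filaments, peaks of 65 and 52 tags lay nearer to Adssl1, a muscle enzyme of purine synthesis. Inf2 had 20.3 FPKM in myotubes, against 93.8 FPKM in myoblasts, and Adssl1 had 119 FPKM in myotubes, against 20.4 FPKM in myoblasts. A peak of 29 tags was in reach of both Ppp1r12c and Tnnt1, the slow troponin T. Ppp1r12c had 21.1 FPKM in myotubes, against 72.5 FPKM in myoblasts, while Tnnt1 had 1473 FPKM in myotubes, against 426 FPKM in myoblasts. The peak of 28 tags at Tgif1, a homeobox repressor, was shared with AC126942.1 and Myom1, the M-band protein myomesin 1, which had 95.3 FPKM in myotubes, against 7.97 FPKM in myoblasts. These peaks cannot be given to 1 gene of the pair from position alone.

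Myod1 itself held the largest member peak. Its 707 tags on chr7:53631485-53633948 (mm9) were 9.06 times the next highest member, at 78 tags, and 7.64% of the 9254 tags in all members. Whether all of these tags come from the genomic locus was not tested, since the peak list holds no reads. The peak was 2464 bp wide and covered 2105 bp, or 80.4%, of the Myod1 locus, with a fold enrichment of 10.3 and an FDR of 0. A second peak of 33 tags lay 5177 bp from the locus. Myod1 had 293 FPKM in myotubes, against 895 FPKM in myoblasts. The authors' deposited table did not mark that difference (q = 0.154).

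Apart from Myod1, the peaks with most tags had 57 to 78 tags. The gene 4831426I19Rik, named Syne3 by RefSeq, which encodes a nesprin of the nuclear envelope, had 7 member peaks with 10, 14, 75, 78, 49, 42 and 21 tags along its locus. It had 4.90 FPKM in myotubes, against 14.5 FPKM in myoblasts. Its peak of 78 tags also had a fold enrichment of 47.0, the only 1 of the 10 highest by either measure to be on both lists, yet its FDR was 40.0%. Actb, the cytoplasmic beta-actin that muscle actins replace, had 1 peak of 74 tags and 1019 FPKM in myotubes, against 3410 FPKM in myoblasts. Actb, like Ptma, has near-identical pseudogenes, so its FPKM is uncertain where the authors' counting could split reads. Srsf3 had 5 peaks, with 38 tags at the 5′ end and 73 and 45 tags downstream, nearer to Gm16197. Srsf3 had 62.0 FPKM in myotubes, against 189 FPKM in myoblasts. Ap1s1, a subunit of a clathrin adaptor, had 63 tags in 1 peak downstream, and Garnl3 57 tags in 1 of 4 peaks inside its locus.
The 3 highest fold enrichments were inside long loci. They reached 69.0 at Tcerg1l (36 tags), 63.0 at Hmcn2 (44 tags) and 60.0 at Parp8 (25 tags), all at summits far inside loci of 188757, 146324 and 170693 bp. After these and the 47.0 at 4831426I19Rik came Creb1, the cAMP response factor, with 45.0, Igfbp2, an insulin-like growth factor binding protein, with 44.0, Gpnmb with 42.6 and Arl5a with 40.0. Hspa12a had 38.4 and Dlx3, a homeobox factor, 36.7. The Creb1 peak lay beyond the locus, nearer to Mettl21a. Among these genes Igfbp2 had 7.52 FPKM in myotubes, against 41.9 FPKM in myoblasts.

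Most genes with a member peak had only 1. A single peak lay at 209 of the 310 genes (67.4%), 2 at 59, 3 at 27, 4 at 8, 5 at 3, 6 at 2, 7 at 1 and 9 at 1. At least 2 were at 101 of them (32.6%, 27.4 to 38.1), against 45.1% of rising genes with a peak (38.3 to 52.0) and 33.1% of steady genes with a peak. Neighbouring summits of 1 gene were a median of 10362 bp apart, and 31 of 173 gaps were under 2 kb. The number of peaks had a Spearman rho of 0.20 with locus length, and the summed tags a rho of 0.04 with the log2 ratio, both over the 310 genes.
Several genes held peaks along much of their length. Rasa3, a GTPase-activating protein of Ras, had 6 peaks of 7 to 29 tags, all inside its locus, and Gdpd5 had 6 of 8 to 38 tags. Prkar2b, a regulatory subunit of protein kinase A, had 5 of 7 to 19 tags and Zfp827 5 of 9 to 19 tags. Cnn2, a calponin of non-muscle cells, had 4 peaks of 10 to 27 tags, and 3 of them lay upstream, nearer to Grin3b and ORF61.

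**Figure D4:**
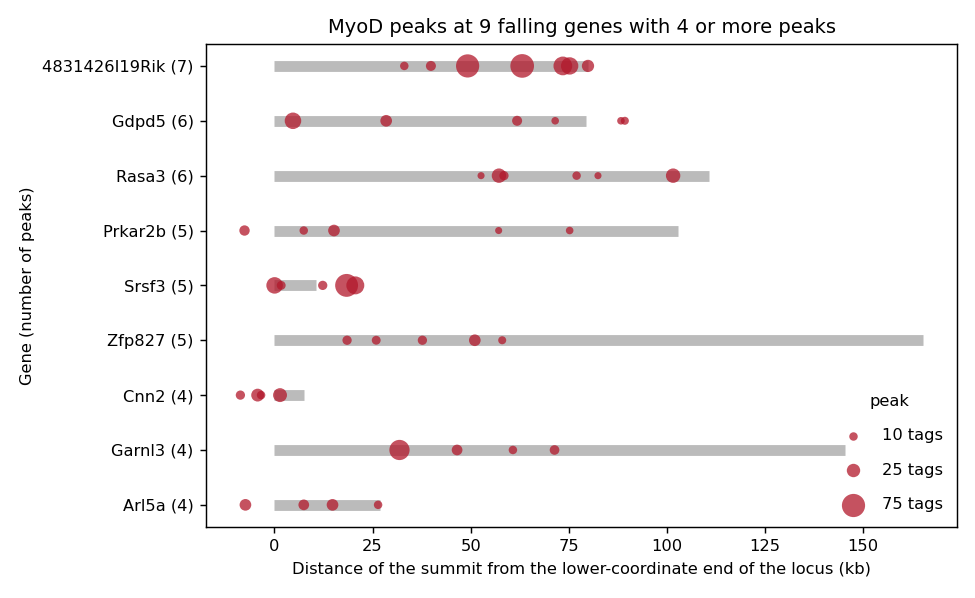
MyoD peaks at 9 falling genes with 4 to 7 peaks, as distance of the summit from the lower-coordinate end of the locus (kb); grey bars are loci and the area of each point stands for its tags. Rasa3 has 6 peaks, all inside its locus; 4831426I19Rik has peaks of 75 and 78 tags in the middle of its locus.

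Of the antagonists of MyoD that were falling genes within the limits, 4 of 5 held a peak, beside 27.4% of all falling genes, and of the G1 and E2F genes 3 of 4 did. These were the highest shares among the lists. Satellite cell genes (3 of 6), TGF-beta and BMP genes (1 of 2) and growth factor genes (2 of 5) also lay above 27.4%. Chromatin (2 of 7) and mitosis genes (5 of 18) lay just above it. Below it were DNA replication genes (4 of 16), myogenic regulators (1 of 4) and adhesion and migration genes (1 of 6). Matrix genes (0 of 6) and AP-1 and immediate early genes (0 of 1) held none. The 12 lists hold 240 distinct genes, were chosen with results of these data known and are described by their counts and by the median log2 ratio of their tested members, beside -0.38 over all tested genes. Of 14 tested antagonists the authors' deposited table marked 6 as lower and 2 as higher, against 17.3% and 6.52% of all tested genes, with a median log2 ratio of -1.09. The 4 antagonists with a peak held 9 member peaks. Id1, Id2 and Id3 hold E proteins in pairs that cannot bind DNA, and Mdfi (I-mfa) holds myogenic factors in the cytoplasm.
Id1 had 41.6 FPKM in myotubes, against 300 FPKM in myoblasts, and 3 peaks of 30, 20 and 21 tags in its flanks. Id2 had 25.5 FPKM in myotubes, against 177 FPKM in myoblasts. Its 2 peaks were 1 of 14 tags at 5 bp inside its 5′ end, whose promoter is shown above, and 1 of 30 tags at 2657 bp upstream. Id3 had 98.2 FPKM in myotubes, against 704 FPKM in myoblasts, with 29 tags at 2933 bp upstream and 31 and 23 tags inside its locus. Of these 8 Id peaks, all had a falling gene as the nearest locus, ties included. Mdfi had 12.8 FPKM in myotubes, against 62.0 FPKM in myoblasts, and 1 peak of 14 tags at 7782 bp upstream. Snai2, an E-box repressor, was the falling member with no peak.

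Among satellite cell genes, 9 of 15 tested were marked as lower and 2 as higher in the authors' deposited table, with a median log2 ratio of -1.87. Of 6 falling genes within the limits, 3 held 8 member peaks. Pax7, the paired box factor that marks satellite cells, had 6.71 FPKM in myotubes, against 48.5 FPKM in myoblasts. It had peaks of 21 and 16 tags, both deep inside the locus. Met, the receptor of hepatocyte growth factor, had 14.6 FPKM in myotubes, against 125 FPKM in myoblasts, and 3 peaks of 9 or 10 tags. Sdc4, the proteoglycan syndecan 4, had 85.2 FPKM in myotubes, against 255 FPKM in myoblasts, with 41 and 11 tags inside the locus and 7 upstream. Cxcr4, Myf5 and Vcam1 had no peak within these limits. Of the myogenic regulators, 6 of 14 tested were marked as lower and 4 as higher (median log2 -0.88), and of 4 falling genes Myod1 alone held peaks.

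DNA replication genes were marked as lower in 31 of 35 cases and as higher in none, in the authors' deposited table, with a median log2 ratio of -2.21. Of the 16 falling genes within the limits, 4 (Mcm2, Rpa1, Rrm1 and Rrm2) held 7 member peaks and 12 none. Mcm2, a subunit of the replicative helicase, had 1 peak of 57 tags inside its locus, 12138 bp from the 5′ end. It had 14.4 FPKM in myotubes, against 62.4 FPKM in myoblasts. Its fellow helicase subunits Mcm3, Mcm4, Mcm5 and Mcm6 had none. Rrm2, the small subunit of ribonucleotide reductase, had 52.1 FPKM in myotubes, against 337 FPKM in myoblasts, with 13 tags 40 bp before its 5′ end and 30 tags 4978 bp before it. Rrm1, the large subunit, had 2 peaks of 7 tags and Rpa1, of the single-strand binding complex, 2 of 12 and 7 tags.
All 25 mitosis genes were marked as lower in the authors' deposited table (median log2 -2.92). Of the 18 falling genes within the limits, 5 held 7 peaks. Birc5, of the chromosomal passenger complex, had 12.7 FPKM in myotubes, against 89.9 FPKM in myoblasts, with 22 tags 203 bp before its 5′ end. Its partner, the kinase Aurkb, had 9.49 FPKM in myotubes, against 69.1 FPKM in myoblasts, but its peak of 28 tags was nearer to 2310047M10Rik. The peaks of Aurka (8 and 7 tags) and Ccnb2 (8 tags) were also nearer to other genes. Plk1 had 1 of 11 tags inside its locus. For 3 of the 5 mitosis genes, then, no peak had the falling gene as its nearest locus.
Of the G1 and E2F list 11 of 19 tested genes were marked as lower and 0 as higher (median log2 -1.60), and 3 of 4 falling genes held 1 peak each. E2f1, the S-phase activator, had 26 tags inside its locus, Skp2 14 tags just beyond its 3′ end and Ccne1, cyclin E1, 13 tags upstream. Of the chromatin genes of dividing cells 11 of 12 were marked as lower (median log2 -2.04), and 2 of 7 falling genes held 3 peaks. These were the histone chaperone Asf1b, whose 2 peaks were nearer to Prkaca, and Lmnb1, lamin B1, with 12 tags.
The share of falling genes with a peak in the replication and mitosis lists, 4 of 16 and 5 of 18, was near the 27.4% of all falling genes.

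In signalling, 7 of 16 tested growth factor genes were marked as lower and 4 as higher (median log2 -1.27), and 2 of 5 falling genes, Met and the ETS factor Etv4, held 4 peaks. Etv4 had 10.4 FPKM in myotubes, against 58.1 FPKM in myoblasts. Of the TGF-beta and BMP genes 5 of 18 were lower and 4 higher (median log2 -0.53), and 1 of 2 falling genes held peaks. That was Tgfbr2, the type II receptor, with 4 peaks of 11 to 16 tags inside its locus. It had 5.53 FPKM in myotubes, against 16.5 FPKM in myoblasts.
Matrix genes were marked as lower in 13 of 22 cases and as higher in 2 (median log2 -1.92), and none of the 6 falling genes within the limits (Col1a2, Col3a1, Col5a2, Col6a1, Mmp2 and Thbs2) held a peak, beside 27.4% of all falling genes. Outside the locus limits, the falling gene Tnc had 2 peaks in reach, and Col4a1 and Col4a2, which lie in 1 merged locus, had 4 in reach. Fn1, Mmp14 and Adam8, also falling genes outside the limits, had none. Adhesion and migration genes were lower in 11 of 19 and higher in 1 (median log2 -1.58), and 1 of 6 falling genes held a peak. It was Anxa1, annexin A1, with 8 tags 299 bp inside its 5′ end and 497 FPKM in myotubes, against 2320 FPKM in myoblasts. AP-1 and immediate early genes were lower in 3 of 16 and higher in 2 (median log2 0.22), and the single falling gene, Klf10, held none. All marks in these lists are those of the authors' deposited table.

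**Figure D5:**
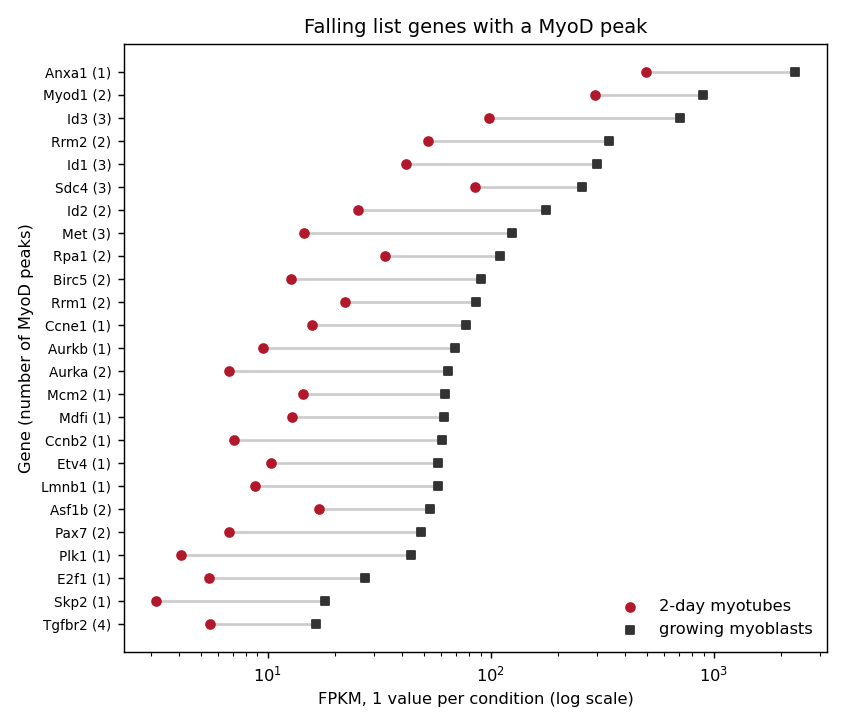
FPKM of the falling list genes with a MyoD peak, in 2-day myotubes (circles) and growing myoblasts (squares), 1 value per condition on a log scale, with the number of peaks in brackets. Every gene lies lower in myotubes because the rule chose it so; Anxa1 is the highest, with 497 FPKM in myotubes and 2320 FPKM in myoblasts.

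Of the genes with a member peak, the lowest ratios of FPKM were at very short loci. Mirlet7d, U6, SNORA17, AC113291.1 and n-R5s96 were listed at 0 FPKM in myotubes and at 17.4 to 35.2 FPKM in myoblasts, on loci of 103 to 140 bp. The authors' deposited table marked none of them, and such small or repeated RNAs are uncertain in a table of polyadenylated RNA. There were 10 genes with a member peak and a locus under 500 bp, with 11 peaks, and the authors' table marked 1 of them. Then came Eps8, an actin-bundling protein, with 8.57 FPKM in myotubes, against 84.7 FPKM in myoblasts and peaks of 12 and 7 tags. Plk1 had 4.10 FPKM in myotubes, against 43.9 FPKM in myoblasts, and E130306D19Rik had 1.41 FPKM in myotubes, against 19.7 FPKM in myoblasts with 15 tags 40 bp inside its 5′ end. Rgs5 and Aurka completed the 10.

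Other summits at 5′ ends were those of Slc44a2 (40 tags), Srsf7 and Ccnl1 (30 tags each), Def6 and Iqgap1 (29 tags each) and D4Wsu53e, named Rsrp1 by RefSeq (27 tags). Srsf7, like Srsf3, is a splicing factor of the serine and arginine rich family, and had 38.9 FPKM in myotubes, against 139 FPKM in myoblasts. Ccnl1, a cyclin linked to splicing, had 21.9 FPKM in myotubes, against 61.9 FPKM in myoblasts. Of the genes with the most tags there, Ptma had 187 FPKM in myotubes, against 1103 FPKM in myoblasts. Its peak was 2065 bp wide with a fold enrichment of 6.19. Ttll7 had 15.0 FPKM in myotubes, against 43.5 FPKM in myoblasts, and Psmd5 had 60.7 FPKM in myotubes, against 155 FPKM in myoblasts. All of them keep a measurable level in myotubes. Iqgap1, a scaffold of the actin cortex, had 13.8 FPKM in myotubes, against 66.7 FPKM in myoblasts.

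The limits of the rule cut through a continuous range. Just inside the ratio of 0.4 were Mnd1 and Sgpl1, at 0.399 and 0.398, and just outside were Khdrbs3 and 6530418L21Rik, at 0.401 and 0.403. Just inside the myoblast minimum were Ager and Cd300lh, at 5.01 and 5.02 FPKM, and just outside Nav1 and Ccdc114, at 4.94 and 4.77 FPKM. Tcerg1l and Sipa1l3 had the longest loci kept, and Alcam and Adamts6, at 205079 and 206891 bp, were left out. A summit 9976 bp from Igfbp2 was kept, and summits 10108 bp from Sp7 and 10142 bp from Asf1b, the second with 43 tags, were not.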

How the data were processed

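Of the 7 samples, 3 entered: RNA of empty-vector myotubes, RNA of empty-vector myoblasts, and MyoD ChIP of 2-day myotubes. The labels make each a group of 1 and state sequencing in duplicates, without saying how duplicates were joined.

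Expression values were FPKM as deposited by the authors, 1 per gene and condition, in a Cuffdiff table. The submitters' processing notes name Cuffdiff, CASAVA 1.7.0, MACS 1.3.7 and the mm9 build. The p-values and q-values were the authors' own, and a gene was marked lower where the authors marked it significant. Aligner, annotation and scaling of the FPKM: not given in the sources used here. Per the file headers, MACS made the peak list in 1 call, with a p-value threshold of 1.00e-05, a tag size of 36 and a band width of 150. The tags of a peak are read counts in the deposited list. The p score is the authors' −log10 p-value on a scale of their caller, deposited as a score, and their fold enrichment is a deposited ratio of tags to the local background. The FDR is a percent, deposited by the authors. The control is not described in the labels used here. Peak values are the authors' own and describe peaks within 1 list.

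Peaks were joined to the loci of the expression table on mm9, with starts counted from 1, and the summit taken as start plus offset minus 1. A pseudocount of 1 was added to FPKM. Strand and promoters came from RefSeq by symbol or gene ID, on GRCm38.p6, and served for names, strand and promoter letters only. The join and the classes were tested on simulated data. Python 3.11.15, pandas 2.3.3, numpy 2.4.6, scipy 1.17.1 and matplotlib 3.10.9 were used. Shares carry exact Clopper-Pearson intervals at 95%, for counting error only. With 1 sample per group, no test over samples was possible, and none was made over peaks or genes.

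The members, the 12 gene lists and the marker lists were chosen with earlier results of these data known. Genes were named where their member peak was among the 10 with most tags or the highest fold enrichment, where they were among the 10 with most peaks or the lowest FPKM ratio, where they belonged to a list, where they lay next to a limit of the rule, or where a summit lay within 300 bp of the 5′ end (up to 10 by tags). The genes named for a rising neighbour were chosen after their values were seen. Letters of the peaks themselves, which would need the mm9 genome, were not analysed here. Some items that these rules select are not reported here.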

Additional observations from a re-analysis of the deposited data

How the results depend on the processing

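The values below were recomputed under 14 other settings: the number of member peaks, the share of falling genes with a peak, the median tags and fold enrichment, and the shares with an FDR of at most 5% and with the summit inside the locus. Of 82 recomputed values, 59 were counted as the same. A share was so counted within the interval of the reported share, and the number of peaks within 1.5 times. No interval is given here for the medians, so their bound is not stated. Of the settings, those on the nearest locus, the p score, short loci and Myod1 were chosen after seeing the data. The number of members, 478, became 72 with an FDR of at most 5%, 79 with a p score of at least 100, 194 at a ratio of at most 0.25, 256 with the ratio divided by the median of tested genes, 1031 with shared loci, 273 with summits inside the locus and 1074 with a window of 50 kb. The share of falling genes with a peak, 27.4%, became 5.39% and 5.92% with the FDR and p score limits, 24.4% with the divided ratio, 35.998% with shared loci, 16.004% inside the locus, 53.0% with 50 kb and 22.0% where the falling gene had to be nearest. Median tags became 26 and median fold enrichment 19.5 with the FDR limit, and 29 and 19.6 with the p score limit, where 89.9% had an FDR of at most 5%. The share inside the locus, 57.1%, became 70.7% for nearest genes, 51.0% at a ratio of at most 0.25, 68.2% with shared loci and 25.4% with 50 kb. With the divided ratio, 24.4% of falling, 46.7% of rising and 30.8% of steady genes held a peak, and with the p score limit 5.92%, 18.7% and 6.69%. Stricter peak limits keep fewer and larger peaks by construction. Also by construction, the number of members can only rise with shared loci or a wider window, which adds only summits outside the loci. It can only fall with summits inside the locus, the lower ratio, the divided ratio or the limit to nearest genes. The cause of the other moves was not tested. No paired analysis was possible because each condition has 1 value. No sample could be left out. Of members 24.7% had under 10 tags, and of all peaks 28.0%, so many values rest on few reads. The effect of ChIP depth on the list was not tested.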

Other observations

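Most falling genes stood outside the locus limits. Of 2309 rows with the same FPKM pattern, 1178 were left out: 1049 at a locus shared with another row, 106 on X or another sequence and 23 at a locus above 200 kb. Of these 1178, a peak was in reach of 546, but shared loci are merged regions that can be very long: that of Cdt1 spans 4435365 bp with 93 peaks in reach. This count is therefore not comparable with the 310 of 1131 within the limits. Among them, Ccnd1 (cyclin D1, the cyclin that drives G1) had 102 FPKM in myotubes, against 882 FPKM in myoblasts, with 1 peak in reach, and Ccna2 (cyclin A2) had 7.56 FPKM in myotubes, against 71.8 FPKM in myoblasts, also with 1. E2f8, a repressor of the E2F family, had 4.94 FPKM in myotubes, against 19.5 FPKM in myoblasts, with 3 peaks in reach. Cdc20, Tpx2 and Top2a, which act in mitosis, had none. These genes were named after their values were seen.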
